A study of Mus musculus with 6 samples.

Results

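The 10 genes described here are markers by which preadipocytes and fibroblasts are recognised in fat: Pdgfra, Pdgfrb, Cd34, Ly6a, Ly6c1, Thy1, Gsn, Dpt, Clec3b and Dlk1. They were matched by symbol, and all 10 are among the 12966 gene symbols of the table. The RNA came from the brown fat of male C57BL/6J mice at an age of 10 weeks. The BKO group (3 libraries) had floxed Bscl2 with a Ucp1Cre transgene, and the Ctrl group (3 libraries) had floxed Bscl2 without it, so both groups carried the floxed allele and BKO alone carried Cre. Bscl2 encodes seipin, a protein of the endoplasmic reticulum needed for normal lipid droplets, and the Ucp1 promoter drives Cre in brown adipocytes. The labels do not say whether each library came from its own animal, so the p-values rest on a spread between libraries that may be technical.

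White and brown fat hold a stroma of fibroblast-like cells beside the adipocytes, and part of this stroma is able to become new adipocytes. These precursors carry the platelet-derived growth factor (PDGF) receptors, of which the alpha receptor marks the adipocyte progenitors and fibroblasts and the beta receptor also marks the mural cells of vessels. They are usually sorted by the surface antigens CD34, SCA-1 (Ly6a) and THY1, and they secrete matrix proteins such as dermatopontin. DLK1, also called PREF-1, is a transmembrane protein of preadipocytes that holds back their differentiation and is lost as they mature.

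Values are given as FPKM, the authors' fragment numbers divided by transcript length and library size, and the number of reads behind them is unknown. Bscl2, the targeted gene, stood at 17.4 ± 1.32 FPKM in BKO and 109 ± 6.05 FPKM in Ctrl (SD, n = 3 each), and it fell by 2.57 in log2(FPKM + 1) with an SE of 0.0788 (adjusted p = 3.95e-05 by limma over all genes, exact two-sided permutation p = 0.1). The sample names in the descriptions read the other way round (WT for BKO, MT for Ctrl), and the Bscl2 level goes with the titles. The FPKM of BKO-3 summed to 2808874, against 1119228 to 1617963 in the other libraries, and it held no value between 0 and 0.486, whereas each of the other libraries held 341 to 632 such values. Ctrl-1 had the highest mean level of skeletal muscle markers at 5.59 on the log2 scale, against 3.08 to 5.02 in the other libraries.

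Sequences are shown for 2 reasons. The first set gives the promoters of the 2 markers whose groups did not overlap, Pdgfra and Cd34, and of Dpt, a marker whose groups overlapped. RefSeq's table on GRCm38.p6 held promoters for 6 of the 10 markers (Pdgfra, Cd34, Gsn, Dpt, Dlk1 and Ly6c1), with 3 starts for Gsn and 2 for Ly6c1. Each window runs from 250 bases before to 50 bases after the start, 5′ to 3′ on the + strand, and capitals mark a match to the motifs searched.
Pdgfra promoter, chr5:75152001-75152300: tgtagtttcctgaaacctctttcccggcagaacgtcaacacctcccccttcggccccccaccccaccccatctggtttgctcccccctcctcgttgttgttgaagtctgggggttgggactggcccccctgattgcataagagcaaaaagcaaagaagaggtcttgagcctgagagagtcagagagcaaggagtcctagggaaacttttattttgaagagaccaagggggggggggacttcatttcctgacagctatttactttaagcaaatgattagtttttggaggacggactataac
Cd34 promoter, chr1:194938571-194938870: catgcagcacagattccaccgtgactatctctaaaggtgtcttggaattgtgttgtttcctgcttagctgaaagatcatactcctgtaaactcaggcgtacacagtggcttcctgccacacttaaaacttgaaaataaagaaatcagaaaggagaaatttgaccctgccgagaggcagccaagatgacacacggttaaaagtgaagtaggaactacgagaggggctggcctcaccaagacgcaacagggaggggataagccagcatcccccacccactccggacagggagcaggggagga
Dpt promoter, chr1:164796413-164796712: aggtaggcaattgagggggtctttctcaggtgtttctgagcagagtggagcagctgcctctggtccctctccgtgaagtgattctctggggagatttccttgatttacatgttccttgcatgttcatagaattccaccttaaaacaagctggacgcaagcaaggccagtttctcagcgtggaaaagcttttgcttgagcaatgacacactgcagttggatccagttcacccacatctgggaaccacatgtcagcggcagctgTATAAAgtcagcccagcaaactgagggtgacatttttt
The motifs were the TATA box TATAAA, the CCAAT box CCAAT, the GC box GGGCGG and the E-box CACGTG, each searched on both strands. Dpt held 1 TATAAA, at position 263 of the window and so among the 50 bases after the start, not before it. This word was found in 13.6% of the 32851 promoters of the table. None of these letters was found in the windows of Pdgfra or Cd34, while CCAAT occurs in 37.4%, GGGCGG in 35.7% and CACGTG in 7.15% of all promoters. Dlk1, whose groups overlapped, held none of them either. Of the other markers with overlapping groups, Gsn held GGGCGG at each of its 3 starts, and Ly6c1 held TATAAA and CCAAT at 1 of its 2 starts. GC content was 51.0% for Pdgfra, 50% for Cd34 and 48.7% for Dpt, beside a median of 52.7% over all promoters. It was 63.7%, 54.7% and 58.7% at the starts of Gsn, 55.7% for Dlk1, and 49.0% and 53.7% at those of Ly6c1.

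The second set bears on how far the reads of a marker can be told from those of its relatives. Ly6c1 and its neighbour on chromosome 15, Ly6c2, have coding sequences of 393 bases each that are identical at 97.7% of positions, with 9 differing bases. Of these, 6 lie in the first 120 coding bases, given here 5′ to 3′ from GENCODE vM21 (GRCm38) with the differing bases in capitals.
Ly6c1 coding bases 1 to 120: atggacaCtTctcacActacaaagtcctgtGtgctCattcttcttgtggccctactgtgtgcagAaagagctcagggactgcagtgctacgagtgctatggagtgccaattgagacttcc
Ly6c2 coding bases 1 to 120: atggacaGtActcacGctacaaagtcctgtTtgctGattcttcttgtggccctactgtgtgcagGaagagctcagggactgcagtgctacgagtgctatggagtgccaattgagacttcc
Of the 795 windows of 50 nt in the longest Ly6c1 transcript, 36.7% also occur in transcripts of other genes, 252 of them in Ly6c2. The share was 10.04% for Ly6a, 4.07% for Cd34 (all in Gm16897) and 0.206% for Pdgfra. It was 0 for Pdgfrb, Thy1, Gsn, Dpt, Clec3b and Dlk1, whose reads of this length would be unique among annotated transcripts. The values of Ly6c1 and Ly6a are therefore uncertain to the extent that the authors' counting split shared reads. The TruSeq RNA kit named in the labels does not keep the strand, so reads of an antisense transcript could not be told apart either.

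The 10 markers spanned a wide range of level. Gsn had the highest mean over the 6 libraries at 189 FPKM, followed by Ly6c1 at 129 and Ly6a at 81.5 FPKM. Dpt, Clec3b and Cd34 stood close together at 11.97, 11.5 and 10.96 FPKM, and their ranges overlapped in both groups. Pdgfrb followed at 7.51 FPKM, and Thy1 (2.60 FPKM) and Pdgfra (1.84 FPKM) overlapped with each other in both groups, although Thy1 was above Pdgfra in 6 of 6 libraries. Dlk1 was the lowest at 0.867 FPKM, below Pdgfra in 6 of 6 libraries with ranges that overlapped in Ctrl. Gsn and Ly6c1 overlapped in Ctrl, with Gsn higher in 6 of 6 libraries, and Ly6a lay below Ly6c1 with no overlap in either group. These are levels in whole tissue, in which fewer cells of a type and less RNA per cell cannot be told apart.

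**Figure D1:**
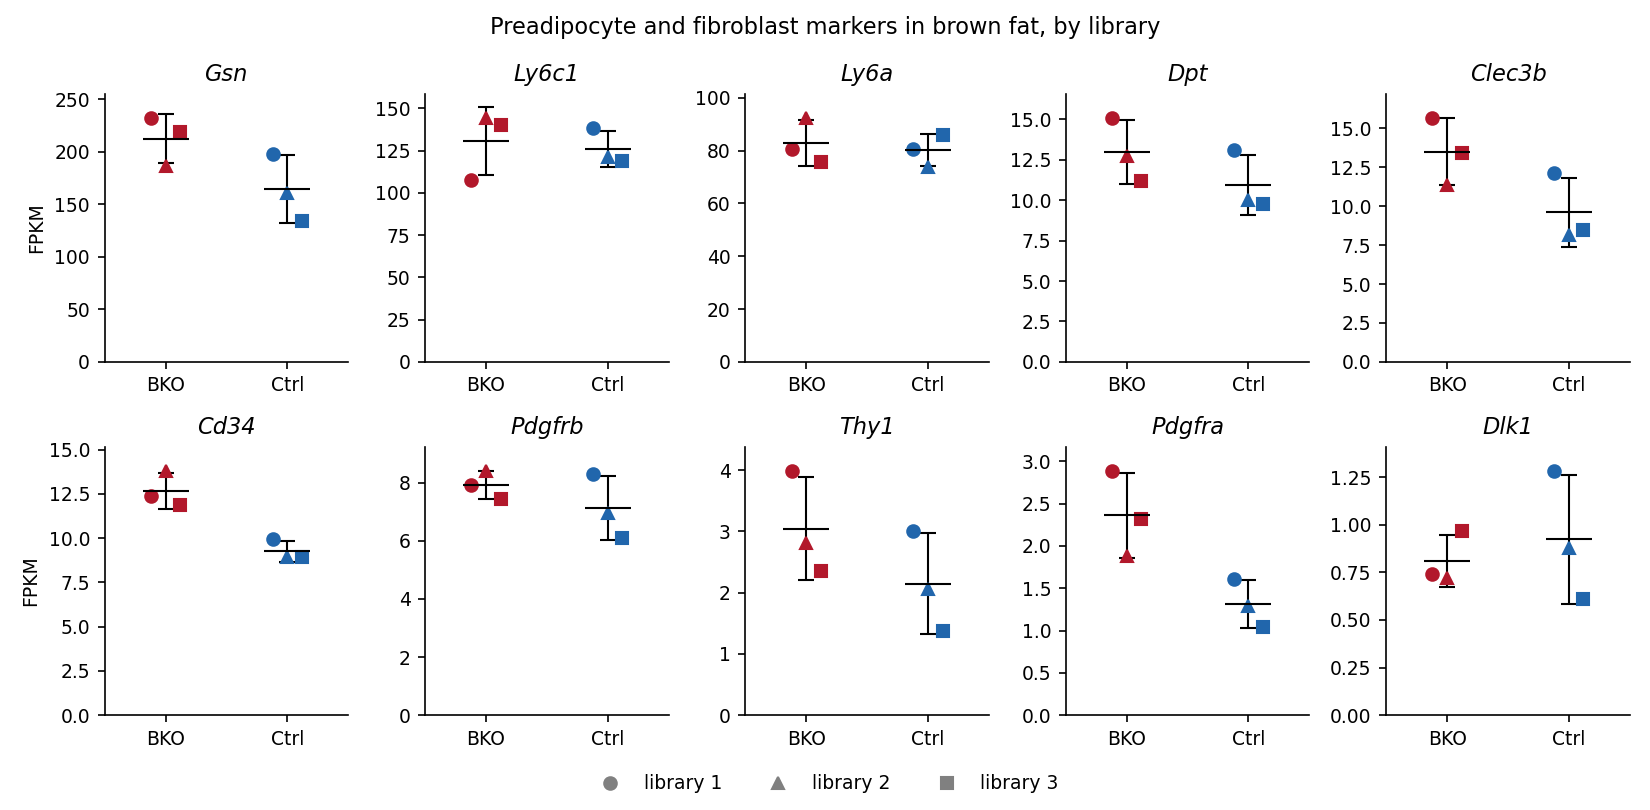
FPKM (y axes, from 0) of the 10 markers in the 3 BKO and 3 Ctrl libraries, one panel per gene in order of level; symbols are libraries, and the bar and whiskers are the mean and SD. Only Pdgfra and Cd34 have all BKO libraries above all Ctrl libraries. Over all genes tested, 9.06% were higher in BKO without overlap and 6.82% lower.

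Among the receptors, the libraries of the 2 groups overlapped in Pdgfrb and not in Pdgfra, and neither difference passed over all genes. Pdgfra, the receptor that marks adipocyte progenitors, stood at 2.88, 1.88 and 2.32 FPKM in the BKO libraries 1 to 3, against 1.61, 1.29 and 1.05 FPKM in the Ctrl libraries 1 to 3. The lowest BKO library thus lay above the highest Ctrl library, as it did in 9.06% of all genes tested. Mean FPKM was 1.79 times the Ctrl level, and the difference was 0.53 on the log2(FPKM + 1) scale (SE 0.146, 95% interval 0.19 to 0.87), which did not pass over all genes (limma with Benjamini-Hochberg adjusted p = 0.29, unadjusted 0.00763). Pdgfrb, the receptor shared by fibroblasts and mural cells, stood at 7.91, 8.39 and 7.43 FPKM in BKO and at 8.29, 6.94 and 6.11 FPKM in Ctrl. Ctrl-1 lay within the BKO range, and the interval of the difference ran from -0.12 to 0.40 on the log2 scale (adjusted p = 0.713 by limma). Within each library, where scaling by library size cancels, Pdgfra amounted to 36.5%, 22.4% and 31.2% of Pdgfrb in BKO and to 19.4%, 18.6% and 17.1% in Ctrl. These shares did not overlap either (exact two-sided permutation p = 0.1, the smallest that 3 against 3 libraries allow), and the pair was chosen after its values were seen.

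The surface antigens used to sort precursors differed among themselves. Cd34, a sialomucin of progenitors that endothelial cells also carry, stood at 12.4, 13.8 and 11.8 FPKM in BKO and at 9.93, 8.93 and 8.91 FPKM in Ctrl, again without overlap. Its mean was 1.37 times the Ctrl level, and the difference of 0.41 (SE 0.085, 95% interval 0.21 to 0.61) had the lowest p of the 10 markers without passing (limma with Benjamini-Hochberg adjusted p = 0.198, unadjusted 0.00163). Endothelial markers overlapped between the groups beside it: all 10 of 10 were listed, none at 0, and their summed level ran from 301 to 317 FPKM in BKO and from 262 to 320 FPKM in Ctrl. Their part in the Cd34 values was not tested.

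Ly6a, which encodes SCA-1, stood at 80.5, 92.4 and 75.5 FPKM in BKO and at 80.7, 73.9 and 85.8 FPKM in Ctrl. Ly6c1, a related antigen of endothelial and stromal cells, stood at 108, 144 and 140.5 FPKM in BKO and at 138, 121 and 119 FPKM in Ctrl. In both genes the libraries of the 2 groups were intermixed. The difference was 0.044 for Ly6a (95% interval -0.18 to 0.27, limma with Benjamini-Hochberg adjusted p = 0.915) and 0.043 for Ly6c1 (-0.25 to 0.34, adjusted p = 0.943), intervals that include the difference measured for Dpt. Ly6c2, the near-identical neighbour known from inflammatory monocytes, was listed at 0.596% to 1.23% of the Ly6c1 level in BKO and at 0.259% to 1.18% in Ctrl. Of 5 monocyte markers, 3 were listed (Cd14, Ccr2 and Ly6c2), none at 0, with a summed level of 6.33 to 8.54 FPKM in BKO and 3.96 to 5.85 FPKM in Ctrl, and their part in the Ly6c1 values was not tested. Thy1, a glycoprotein of fibroblasts, neurons and T cells, stood at 3.98, 2.81 and 2.35 FPKM in BKO and at 3.01, 2.06 and 1.38 FPKM in Ctrl. The groups overlapped, since Ctrl-1 exceeded BKO-2 and BKO-3 (difference 0.38, 95% interval -0.14 to 0.89, adjusted p = 0.623 by limma). Of 9 T cell markers, 2 were listed (Cd3g and Cd2), with a summed level of 0.765 to 1.24 FPKM in BKO and 0.582 to 1.89 FPKM in Ctrl.

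The secreted and cytoskeletal markers had higher means in BKO with overlapping libraries. Gsn, gelsolin, cuts actin filaments and also has a secreted plasma form, and the table gives 1 value for all its transcripts. It stood at 232, 187 and 219 FPKM in BKO and at 198, 161 and 134 FPKM in Ctrl, so that Ctrl-1 exceeded BKO-2. Clec3b, which encodes tetranectin, a plasminogen-binding protein of connective tissue, stood at 15.7, 11.4 and 13.4 FPKM in BKO and at 12.1, 8.17 and 8.50 FPKM in Ctrl. Here too Ctrl-1 alone of the Ctrl libraries reached into the BKO range. The differences were 0.38 for Gsn (95% interval 0.03 to 0.73, limma with Benjamini-Hochberg adjusted p = 0.453) and 0.46 for Clec3b (0.07 to 0.85, adjusted p = 0.416). Dpt, dermatopontin, a matrix protein that binds decorin, stood at 15.1, 12.7 and 11.2 FPKM in BKO and at 13.1, 9.99 and 9.75 FPKM in Ctrl, with Ctrl-1 above BKO-2 and BKO-3. Its difference was 0.23 (-0.10 to 0.56, adjusted p = 0.636).

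Dlk1 was the marker with the lowest level and the only one with a lower mean in BKO. It stood at 0.740, 0.722 and 0.968 FPKM in BKO and at 1.28, 0.877 and 0.611 FPKM in Ctrl, and all 3 BKO libraries lay inside the Ctrl range. Its mean of 0.867 FPKM fell under the filter of 1 FPKM, so it was not tested with the others. With no filter the difference was -0.08 on the log2 scale (limma with Benjamini-Hochberg adjusted p = 0.894).

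Over the tested markers, 0 of 9 passed at an adjusted p below 0.05 in either direction, where 0.158% of the 11397 genes tested were called higher and 0.00877% lower (limma). At an unadjusted p below 0.05, 4 of 9 were higher (Pdgfra, Cd34, Gsn and Clec3b) and 0 lower, against 6.63% and 3.52% of all genes. The groups did not overlap in 2 of 9, both higher in BKO, where 9.06% of all genes were higher without overlap and 6.82% lower. All 9 tested log2 differences were positive, as were 51.6% of those of all genes, and their median was 0.38, against 0.0056 over all genes tested. Dlk1, not among the 9, had a negative difference. The median was 0.21 without BKO-1 and 0.19 without Ctrl-3, and the count at an unadjusted p below 0.05 was 2 without BKO-1, BKO-3, Ctrl-2 or Ctrl-3 and 7 without Ctrl-1.

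**Figure D2:**
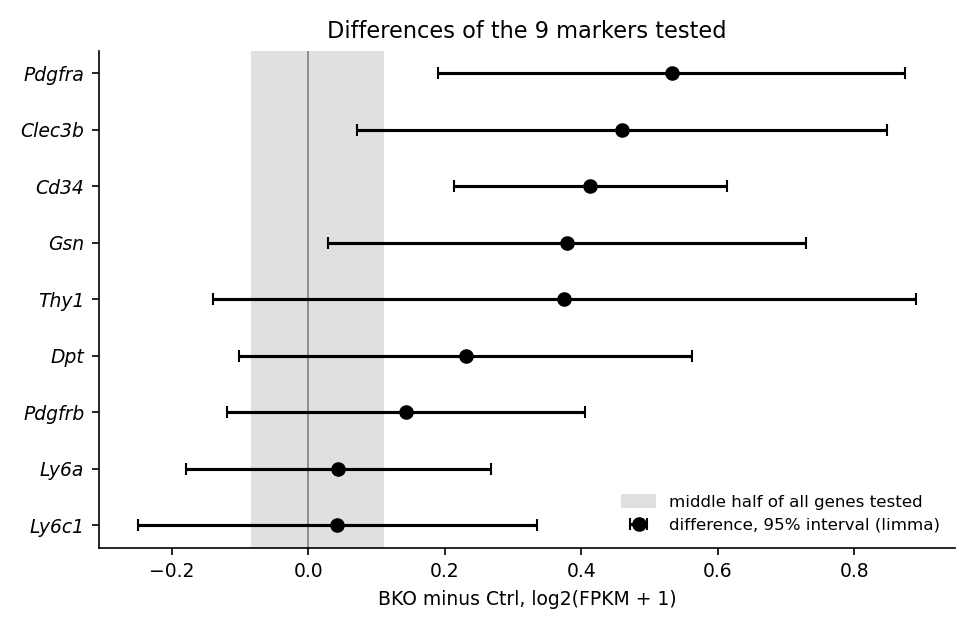
BKO minus Ctrl difference in log2(FPKM + 1) (x axis) of the 9 tested markers (y axis) with 95% intervals from limma; the grey band holds the middle 50% of all 11397 genes tested. Intervals of Pdgfra, Clec3b, Cd34 and Gsn lie above 0, those of the other markers include 0, and no difference passed after adjustment over all genes.

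The Ctrl libraries differed in the same order for many markers, whereas the order of the BKO libraries varied from marker to marker. Ctrl-1 was the highest Ctrl library in 9 of the 10 markers, all but Ly6a, and Ctrl-3 the lowest in 8 of 10. BKO-1 was the highest BKO library in 5 (Pdgfra, Thy1, Gsn, Dpt and Clec3b). The mean log2(FPKM + 1) level of the 9 tested markers was 4.47, 4.36 and 4.32 in the BKO libraries 1 to 3 and 4.30, 4.03 and 3.95 in the Ctrl libraries 1 to 3. Ctrl-1 lay just below the lowest BKO library. The pair of markers with the most alike profiles over the 6 libraries was Pdgfra and Clec3b, whose centred log2 levels differed by a root mean square of 0.104, followed by Pdgfra with Gsn at 0.107 and Gsn with Clec3b at 0.109. Ly6c1 and Ly6a lay farthest from the mean profile of the markers, at 0.219 and 0.202. All libraries share the scaling by size, so a library scaled high would move every marker in it. The median FPKM of all tested genes was 7.33, 7.42 and 7.54 in the BKO libraries 1 to 3. In the Ctrl libraries 1 to 3 it was 7.64, 7.22 and 7.14, the same order as the markers' mean level there. The part of scaling in the order of the libraries was not tested.

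**Figure D3:**
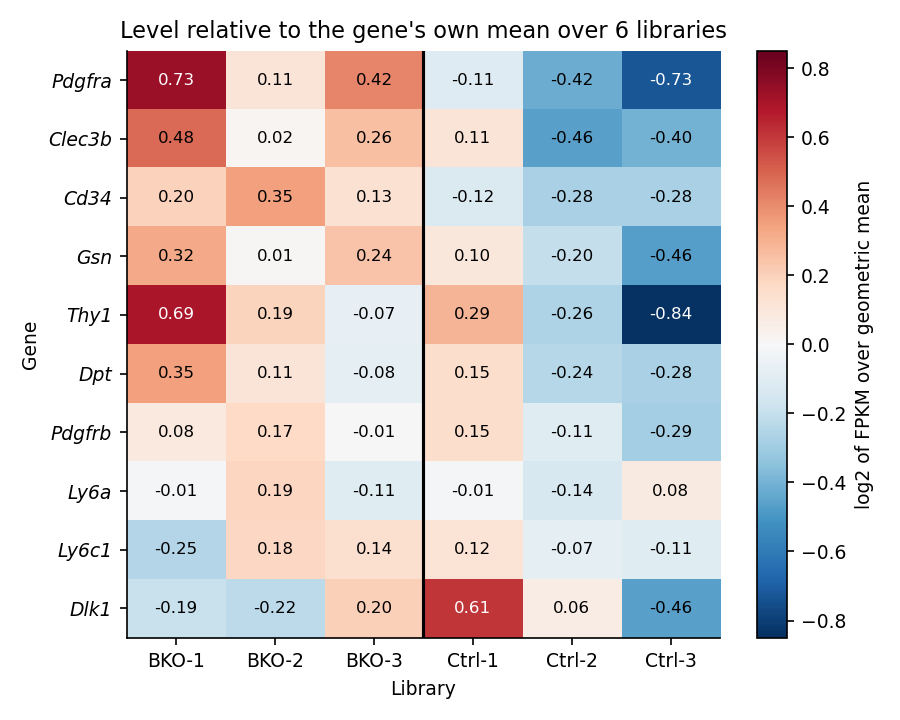
Level of each marker (rows, ordered by its BKO minus Ctrl difference) in each library (columns), as log2 of FPKM over the gene's own geometric mean across 6 libraries. Pdgfra, Clec3b, Gsn, Thy1 and Dpt share high values in BKO-1 and low values in Ctrl-2 and Ctrl-3. Among these 5 the groups overlap in all but Pdgfra, and they also overlap in Pdgfrb, Ly6a, Ly6c1 and Dlk1.

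The 5 genes outside the list whose profile was most like the markers' mean profile were Cndp2, Ifi30, Lmnb1, Gm15658 and Mtap7d1, with root mean square differences of 0.0271 to 0.0376 log2 units over 6 libraries. Cndp2, a cytosolic dipeptidase, was the closest, at 10.8 ± 0.494 FPKM in BKO and 8.52 ± 1.07 FPKM in Ctrl (SD, n = 3 each). Ifi30, a thiol reductase of antigen-presenting cells, stood at 9.53 ± 0.344 FPKM in BKO and 7.75 ± 1.43 FPKM in Ctrl. With 6 libraries and 11397 genes some profiles will be close whatever the genes do.

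A wider list of progenitor and fibroblast genes, 37 symbols beside the markers, had 32 listed and 28 tested. None passed over all genes in either direction, 6 were higher and 0 lower at an unadjusted p below 0.05 (6.63% and 3.52% of all genes), and the median log2 difference was 0.18. Its 2 most abundant members had lower means in BKO, with overlapping libraries: Vim, vimentin, stood at 166 ± 23.1 FPKM in BKO and 188 ± 12.8 FPKM in Ctrl, and C3, complement component 3, at 113 ± 15.1 FPKM in BKO and 127 ± 9.73 FPKM in Ctrl (SD, n = 3 each). In 7 of the 28 the BKO libraries all lay above the Ctrl libraries, and in 0 below (9.06% and 6.82% of all genes). These 7, named after their values were seen, were Lum, Serpinf1, Pcolce, Col15a1, Mfap5, Prrx1 and Fap. Lum, the collagen-binding proteoglycan lumican, stood at 15.8 ± 2.36 FPKM in BKO and 9.73 ± 1.25 FPKM in Ctrl (difference 0.64, limma with Benjamini-Hochberg adjusted p = 0.198). Serpinf1, which encodes the secreted factor PEDF, stood at 15.7 ± 2.61 FPKM in BKO and 9.62 ± 1.84 FPKM in Ctrl (0.65, adjusted p = 0.248). Dpp4, Sema3c, Mfap4, Twist2 and Tcf21 were not listed.

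Further lists covered the markers' own pathways. Of 13 tested genes of PDGF ligands and receptor signalling, none passed and 0 were past an unadjusted p of 0.05 in either direction, with a median of 0.03. The most abundant were the adaptor Crk, at 31.6 ± 2.13 FPKM in BKO and 32.7 ± 3.02 FPKM in Ctrl, and the phosphatase Ptpn11, at 27.6 ± 2.16 FPKM in BKO and 26.3 ± 0.837 FPKM in Ctrl. Among 16 tested regulators of adipogenic commitment none passed, 2 were higher and 0 lower at an unadjusted p below 0.05 (Cebpb, and Klf2, named after its values were seen), and the median was 0.08, where 6.63% of all genes were higher and 3.52% lower. Cebpb, an early factor of adipocyte differentiation, stood at 267 ± 22.5 FPKM in BKO and 213 ± 34.0 FPKM in Ctrl, and Cebpa, a later one, at 189 ± 22.7 FPKM in BKO and 211 ± 45.04 FPKM in Ctrl.

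For Dlk1, the list of Notch genes and partners had 13 tested genes and a median of 0.14. None passed, while at an unadjusted p below 0.05 the sheddase Adam17 was higher and the Notch ligand Dll1 lower, both named after their values were seen. These were 1 of 13 in each direction, where 6.63% of all genes were higher and 3.52% lower. In 2 of the 13 the BKO libraries all lay above the Ctrl libraries, and in 2 below (9.06% and 6.82% of all genes). Adam17 stood at 9.77 ± 1.09 FPKM in BKO and 8.01 ± 0.896 FPKM in Ctrl, and Dll1 at 1.23 ± 0.146 FPKM in BKO and 1.84 ± 0.32 FPKM in Ctrl (SD, n = 3 each). Hes1, a transcriptional target of Notch, stood at 15.8, 8.73 and 14.5 FPKM in BKO and at 11.1, 10.9 and 7.21 FPKM in Ctrl, with overlap, whereas its relative Heyl stood at 11.003, 10.1 and 10.1 FPKM in BKO and at 9.32, 9.53 and 8.73 FPKM in Ctrl, without overlap (difference 0.16, limma with Benjamini-Hochberg adjusted p = 0.528). Dlk1 is imprinted, and of 9 tested imprinted genes none passed, 3 were higher and 0 lower at an unadjusted p below 0.05 (Meg3, Ndn and Peg3, named after their values were seen), with a median of 0.043. Over all genes 6.63% were higher and 3.52% lower at that p. Meg3, the non-coding RNA expressed from the other parental copy of the Dlk1 cluster, stood at 15.7 ± 0.679 FPKM in BKO and 13.7 ± 0.55 FPKM in Ctrl (difference 0.19, limma with Benjamini-Hochberg adjusted p = 0.438). Gnas, the stimulatory G protein subunit, stood at 804 ± 33.8 FPKM in BKO and 722 ± 60.6 FPKM in Ctrl, and Cdkn1c, a cell cycle inhibitor, at 16.3 ± 2.71 FPKM in BKO and 20.4 ± 2.22 FPKM in Ctrl. Rtl1 and Dio3, neighbours of Dlk1 in its imprinted cluster, were not listed.

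Of 13 further Ly6 family genes, 5 were listed and 4 tested, with none passed, 0 past an unadjusted p of 0.05 and a median of 0.017. Gpihbp1, the endothelial anchor of lipoprotein lipase, stood at 73.9 ± 14.5 FPKM in BKO and 79.7 ± 2.02 FPKM in Ctrl. Ly6e stood at 59.3 ± 5.06 FPKM in BKO and 50.04 ± 7.14 FPKM in Ctrl (difference 0.25, limma with Benjamini-Hochberg adjusted p = 0.519), a gene whose groups overlapped through Ctrl-1.

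**Figure D4:**
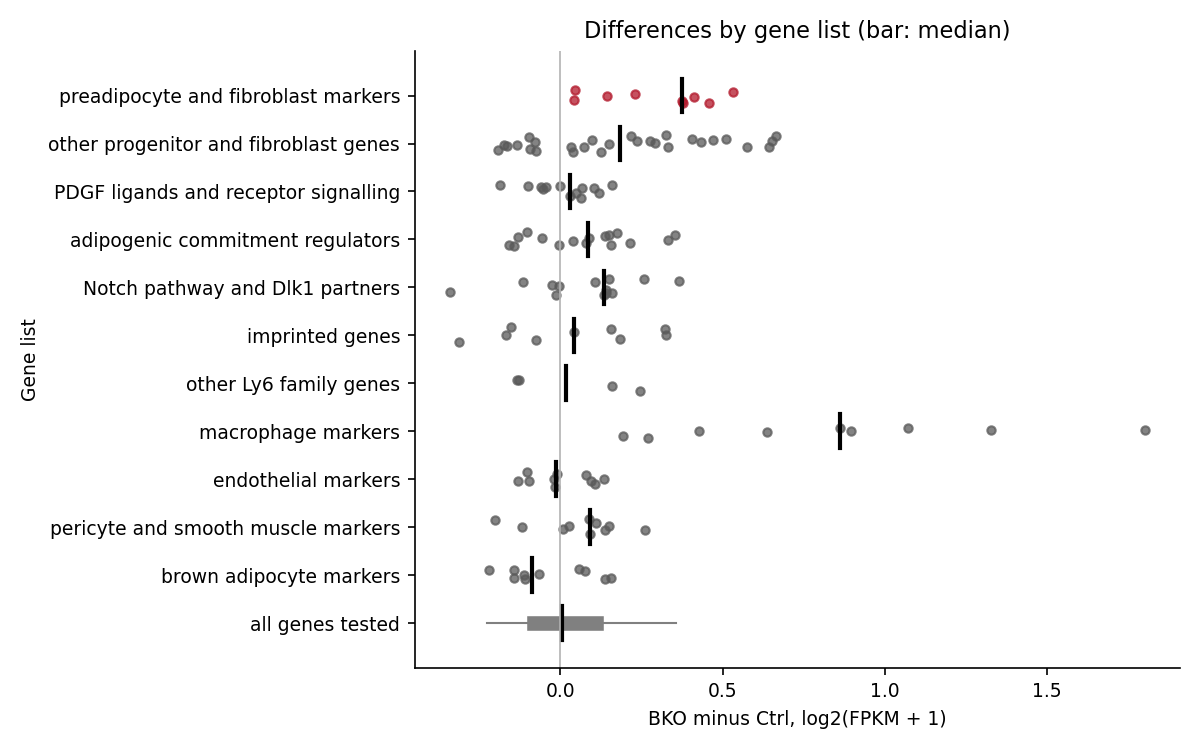
BKO minus Ctrl difference in log2(FPKM + 1) (x axis) of each tested gene, by list (y axis); points are genes and bars are medians, and for all genes tested the thick and thin lines span the middle 50% and 90%. The markers have a median of 0.38 and the wider progenitor and fibroblast list 0.18, against 0.0056 over all genes.

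Markers of other cells that the tissue holds were measured beside them. The mean level of the macrophage markers put the libraries in the same order as that of the preadipocyte and fibroblast markers. Their mean log2 level was 3.41, 3.29 and 3.22 in the BKO libraries 1 to 3 and 2.75, 2.37 and 2.31 in the Ctrl libraries 1 to 3. The wider progenitor and fibroblast list stood at 3.45, 3.25 and 3.17 in BKO and at 3.23, 3.05 and 2.98 in Ctrl. Its order was not the same, with Ctrl-1 above BKO-3. Ctrl-3 was also the lowest library for endothelial (4.37) and pericyte and smooth muscle markers (3.25). For brown adipocyte markers it was the highest (8.87). All 10 macrophage markers were listed, none at 0, and their summed level was 140.2 to 178 FPKM in BKO and 51.4 to 79.5 FPKM in Ctrl. Of the 9 tested, 1 passed, Lyz2, the lysozyme of macrophages, where 0.158% of all genes were called higher and 0.00877% lower. Lyz2 rose by 1.802 on the log2 scale (limma with Benjamini-Hochberg adjusted p = 0.0195). At an unadjusted p below 0.05, 8 of the 9 were higher and 0 lower (6.63% and 3.52% of all genes). In 7 of the 9 the BKO libraries all lay above the Ctrl libraries, and in 0 below (9.06% and 6.82% of all genes). The median log2 difference was 0.86. Cd163, the tenth, a scavenger receptor of macrophages named after its values were seen, had a mean below the filter of 1 FPKM and lay lower in BKO without overlap, at 0.329, 0.507 and 0.568 FPKM in BKO and 1.23, 0.780 and 1.102 FPKM in Ctrl. Pericyte and smooth muscle markers, 10 of 10 listed and none at 0, summed to 180.3 to 192 FPKM in BKO and 171 to 192 FPKM in Ctrl, with a median difference of 0.09. Endothelial markers had a median of -0.014 and brown adipocyte markers of -0.09. Of 7 mesothelial markers 1 was listed, Lrrn4, at 0.738 to 1.101 FPKM in BKO and 1.12 to 1.31 FPKM in Ctrl, and of 7 nerve and Schwann cell markers 3 were listed, with a summed level of 37.5 to 56.3 FPKM in BKO and 28.3 to 38.9 FPKM in Ctrl. The part of these cell types in the differences of Pdgfra, Thy1, Gsn, Dpt and Clec3b was not tested.

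**Figure D5:**
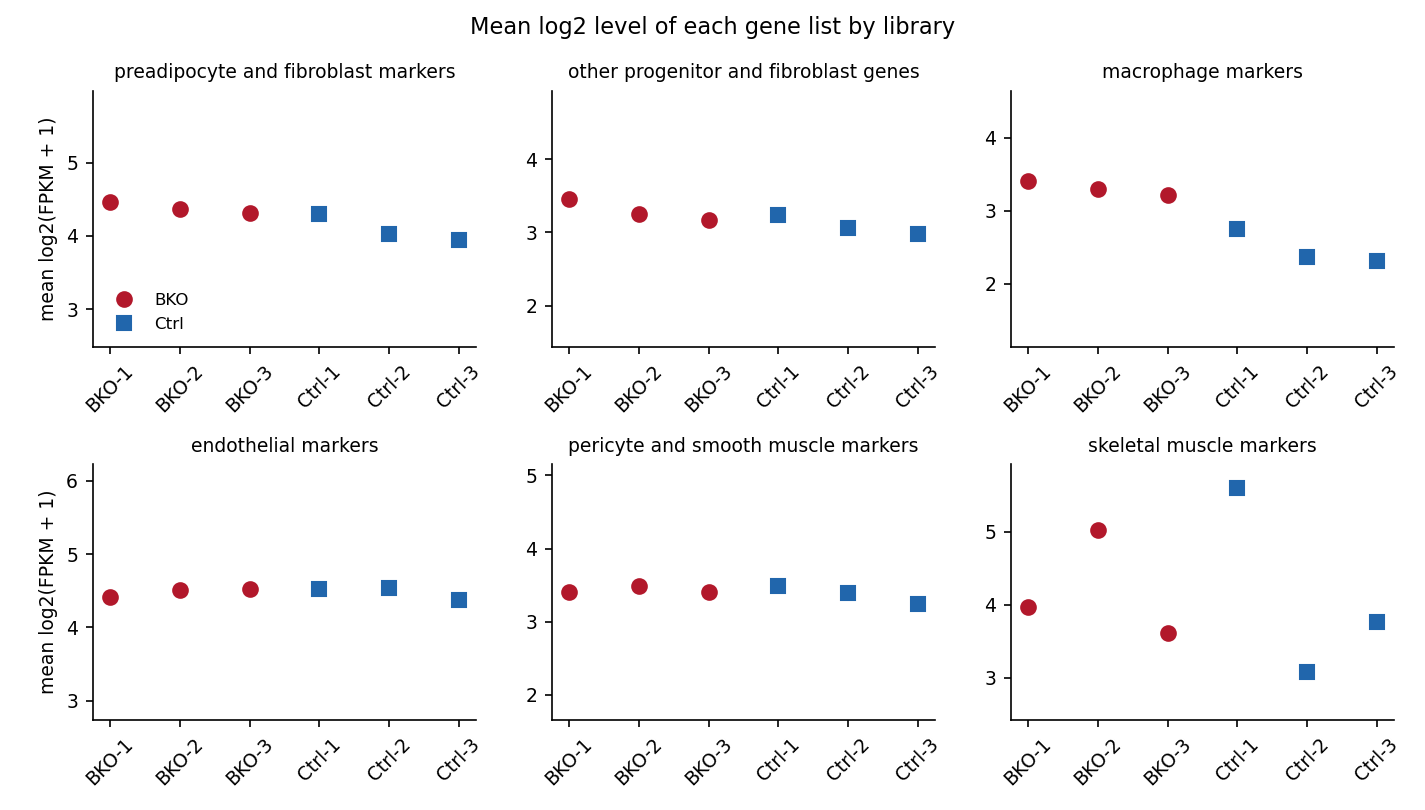
Mean log2(FPKM + 1) level (y axes, all spanning the same number of units) of 6 gene lists in each library (x axes), BKO as circles and Ctrl as squares. The markers, the other progenitor and fibroblast genes and the macrophage markers are each highest in BKO-1 and lowest in Ctrl-3. In the other progenitor and fibroblast genes Ctrl-1 lies above BKO-3. Endothelial markers overlap between the groups, and skeletal muscle markers are highest in Ctrl-1.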

How the data were processed

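RNA of brown fat was sequenced in 3 BKO and 3 Ctrl libraries. CASAVA 1.8, TopHat2 2.0.12, Cufflinks 2.2.1 and the build NCBIM37 are named, per the submitters' processing notes; their options and the annotation were not stated. The values deposited by the authors are FPKM, scaled by them for length and depth, and are not counts, so depth is unknown. Columns were assigned through the sample names in the descriptions, and replicate numbers come from the titles.

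After transformation to log2(FPKM + 1), the 11397 genes whose mean over the libraries reached 1 FPKM were fitted with limma 3.58.1 (R 4.3.3, intensity trend), with Benjamini-Hochberg adjustment at 0.05 and 95% intervals. Fold changes on this scale understate those of low genes such as Pdgfra. The fit was tested on simulated data.

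The markers and lists were chosen with earlier results of these data known. The text names all 10 markers, Bscl2, the genes of each pathway list past the test or else the 2 most abundant, and the 5 genes most like the markers in profile. Further genes such as Lum, Klf2 and Adam17 were named after their values were seen, as said where they appear. Cell type lists are described by counts, sums, mean levels and medians, and some of their genes are named. Alternatives were other pseudocounts, filters, scalings and weights, no trend, the replicate number as a block, muscle markers as a covariate, another threshold and each library left out. Promoters come from RefSeq on GRCm38.p6 and transcripts from GENCODE vM21.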

Additional observations from a re-analysis of the deposited data

How the results depend on the processing

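None of the 9 tested markers passed in any of the 17 alternatives (Dlk1, tested with no filter, did not pass either), the lowest adjusted p being 0.0717 for Cd34 with array weights (limma, range 0.0717 to 0.646 over its alternatives). The log2 differences of Pdgfra (0.42 to 0.79), Cd34 (0.36 to 0.46), Clec3b (0.35 to 0.62), Gsn (0.24 to 0.52), Thy1 (0.19 to 0.57), Dpt (0.13 to 0.36) and Pdgfrb (0.05 to 0.24) kept their direction. With 1 library left out Ly6a ran from -0.036 to 0.107, turning negative without BKO-2 and Ctrl-2 (-0.012), and Ly6c1 from -0.034 to 0.176, turning negative without BKO-2 and BKO-3 (-0.014). The cause was not tested.

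The markers' median was 0.19 to 0.46 with 1 library left out and 0.23 at a mean of 5 FPKM, where fewer markers were tested. With the other scalings it was 0.36 (median ratio) and 0.34 (quantile normalization). The other lists' medians, with 1 library left out, ran from 0.11 to 0.25 for progenitor and fibroblast genes, -0.048 to 0.075 for PDGF, 0.025 to 0.132 for adipogenic commitment, 0.052 to 0.167 for Notch, 0.0040 to 0.116 for imprinted and -0.11 to 0.13 for Ly6 genes. At a mean of 5 FPKM the progenitor list had 0.33 and the imprinted list 0.17, and with array weights the adipogenic list had 0.15. Over all genes, 18 higher and 1 lower became 5 to 41 and 1 to 3 with 1 library left out, 48 and 6 with array weights, 33 higher at an adjusted p below 0.1, 11 higher with no filter, 9 at a mean of 5 FPKM and 8 with the muscle score.

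Over all tested genes the replicate numbers did not pair the libraries consistently. Deviations from the group means correlated at 0.196, -0.104 and -0.1004 over tested genes within the same number. BKO-1 correlated best with its own number, whereas BKO-2 did so with Ctrl-3 (0.219) and BKO-3 with Ctrl-2 (0.148). No other pairing was tested. With the replicate block 2 genes were lower and 0 markers passed, and the markers' median stayed 0.38. The block did raise the count of markers higher at an unadjusted p below 0.05 from 4 to 6 (limma).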
